A study of Mus musculus with 2 samples.

Results

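The replication genes described here are 43 genes, chosen by symbol, that load, start and run the DNA replication machinery, out of 27998 genes in the deposited gene table. All 43 were found, all are annotated as protein-coding, and all had at least 200 unique molecular identifiers (UMIs, tags that count each captured transcript end once) over both libraries. They were measured by single-cell RNA sequencing of mouse E14 embryonic stem cells, a male pluripotent line whose strain label reads C57BL/6, grown without feeders on gelatin in 2i/LIF medium (2 kinase inhibitors plus leukaemia inhibitory factor). One library of 742 cells was made after 24 h in Idoxuridine, an iodinated thymidine analogue that dividing cells build into new DNA, and 1 library of 811 cells after 24 h in DMSO, the solvent, with the same protocols in the labels for both. About 3000 cells were loaded per library, per the labels. The treatment label gives 10 µM Idoxuridine, a protocol field gives 10 mM, and the files do not settle which is right. With 1 library per treatment there was no replicate and no test between treatments. Each interval given is a 95% interval that covers counting error alone. It leaves out the spread between cells of a library and the spread between cultures, and is too narrow where cells vary.

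Eukaryotic replication starts where the origin recognition complex (ORC), with CDC6 and CDT1, loads the ring-shaped MCM2-7 helicase onto DNA, a step called licensing that geminin blocks outside G1. CDC45 and the GINS complex then join MCM2-7 to form the active CMG helicase. DNA polymerase alpha-primase lays down primers, polymerases epsilon and delta extend them with the sliding clamp PCNA and its loader RFC, RPA coats the single strands, and FEN1 and LIG1 finish the lagging strand. Ribonucleotide reductase (RRM1 and RRM2) supplies the deoxynucleotides. Many of these genes are known targets of E2F transcription factors, which switch on genes at entry into S phase. Embryonic stem cells have a short G1 and spend much of their cycle in S phase.

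The Idoxuridine library held 30454626 UMIs, with a median of 37425 per cell (9295 to 130052), and the DMSO library 40818344, with a median of 44502 (14814 to 136231). The libraries shared 2 cell barcodes. The 8 embryonic stem cell markers examined were all detected in both libraries, 3 of them were called lower in Idoxuridine by the rule given below, and together they summed to 4454 CPM (UMIs per 1000000 UMIs of the library) in Idoxuridine and 6139 CPM in DMSO. The 7 fibroblast markers summed to 11.6 CPM in Idoxuridine and 0.71 CPM in DMSO, the 6 primitive endoderm markers to 8.44 CPM in Idoxuridine and 1.20 CPM in DMSO. The 6 trophectoderm markers summed to 180 CPM in Idoxuridine and 117 CPM in DMSO, and the 6 markers of 2-cell-like cells to 10.5 CPM in Idoxuridine and 0.0735 CPM in DMSO. In Idoxuridine 1 fibroblast and 2 of the 2-cell-like markers had no UMI, against 3 and 5 in DMSO, and Gm5662 held nearly all of the 2-cell-like sum, with 314 UMIs in Idoxuridine and 3 in DMSO. Krt8 held most of the trophectoderm sum, at 127 CPM in Idoxuridine and 93.5 CPM in DMSO. Whether cells of these other types were present, and their part in the results below, was not tested.

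Some members share a feature of their promoters that the choice of members did not use. RefSeq promoter windows, from 250 bases before to 50 bases after an annotated start on GRCm38.p6, were at hand for 35 of the 43 members. Both strands were searched for 4 forms of the E2F site, TTTCCCGC, TTTGGCGC, TTTCGCGC and TTTGCCGC, which can overlap each other. At least 1 was found for 15 of the 35 members (42.9%), against 5.02% of 7971 genes with at least 200 UMIs and a window, and 2.60% of all 27025 genes in the promoter table. By promoter window the shares were 34.9% of 43 member windows and 4.15% of 10197 windows of genes with at least 200 UMIs. A match is a string of letters, not a proven site. The sequences below are shown because they pair this feature with the cell cycle results that follow: Mcm6, Mcm5 and Cdc6 hold a match and were higher in S-leaning cells, Orc6 holds none and was also higher in them, and Rfc5 holds none and was about level. Each is printed 5′ to 3′ in the direction of the gene, in lower case, with E2F matches in capitals.
Mcm6, chr1:128359656-128359955: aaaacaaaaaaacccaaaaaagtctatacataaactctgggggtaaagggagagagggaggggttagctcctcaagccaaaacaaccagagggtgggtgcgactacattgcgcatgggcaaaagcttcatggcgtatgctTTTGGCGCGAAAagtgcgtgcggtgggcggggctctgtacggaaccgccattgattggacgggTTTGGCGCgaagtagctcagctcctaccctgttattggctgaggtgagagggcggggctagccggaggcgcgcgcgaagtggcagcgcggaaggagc
Mcm5, chr8:75109259-75109558: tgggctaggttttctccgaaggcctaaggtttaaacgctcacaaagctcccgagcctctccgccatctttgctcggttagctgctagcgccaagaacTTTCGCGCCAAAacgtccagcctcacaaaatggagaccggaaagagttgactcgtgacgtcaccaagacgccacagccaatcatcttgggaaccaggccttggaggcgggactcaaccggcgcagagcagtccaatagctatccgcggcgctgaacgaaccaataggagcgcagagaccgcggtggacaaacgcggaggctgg
Cdc6, chr11:98907901-98908200: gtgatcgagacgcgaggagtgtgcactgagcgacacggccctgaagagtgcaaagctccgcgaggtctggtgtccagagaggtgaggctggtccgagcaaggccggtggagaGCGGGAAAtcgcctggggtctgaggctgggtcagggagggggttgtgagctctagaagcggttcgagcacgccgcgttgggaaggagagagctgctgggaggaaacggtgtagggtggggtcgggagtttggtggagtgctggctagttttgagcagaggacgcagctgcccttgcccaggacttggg
Orc6, chr8:85299382-85299681: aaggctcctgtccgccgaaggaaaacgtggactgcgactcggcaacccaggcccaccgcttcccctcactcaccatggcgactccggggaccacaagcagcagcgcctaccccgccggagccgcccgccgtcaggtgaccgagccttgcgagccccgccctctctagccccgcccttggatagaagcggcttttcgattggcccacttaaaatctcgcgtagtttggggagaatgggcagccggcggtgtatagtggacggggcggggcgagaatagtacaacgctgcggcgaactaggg
Rfc5, chr5:117388974-117389273: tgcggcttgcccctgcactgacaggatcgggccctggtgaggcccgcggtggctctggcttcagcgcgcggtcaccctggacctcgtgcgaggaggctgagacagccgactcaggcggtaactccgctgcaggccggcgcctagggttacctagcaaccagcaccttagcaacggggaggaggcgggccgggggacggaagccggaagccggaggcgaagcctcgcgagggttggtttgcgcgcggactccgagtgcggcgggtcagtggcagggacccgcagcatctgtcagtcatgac

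In Mcm6 (chromosome 1, minus strand) there are 3 matches, 2 of which overlap. In Mcm5 (chromosome 8, plus strand) a pair of overlapping matches on opposite strands gives 1 run of capitals. In Cdc6 (chromosome 11, plus strand) there is 1. The Cdc6 window lies inside the gene as GENCODE M21 places it, with a start at 98907801, so sequence before that start was not searched. The windows of Orc6 (chromosome 8, plus strand) and Rfc5 (chromosome 5, minus strand) have no match to these letters, which says nothing of E2F itself.

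The first question is how abundant the members were and whether their level differed after Idoxuridine. Summed over the 43 genes, replication transcripts made up 0.608% of UMIs in the Idoxuridine library and 0.647% in the DMSO library, a log2 ratio of -0.09 (-0.10 to -0.08). In a 3′ UMI library each molecule is counted once whatever its length, so CPM values of different genes are set side by side without division by length, although capture can still differ between genes. The 43 members spanned a wide range in DMSO, from 15.7 CPM for Gins3 to 581 CPM for Mcm2.

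**Figure D1:**
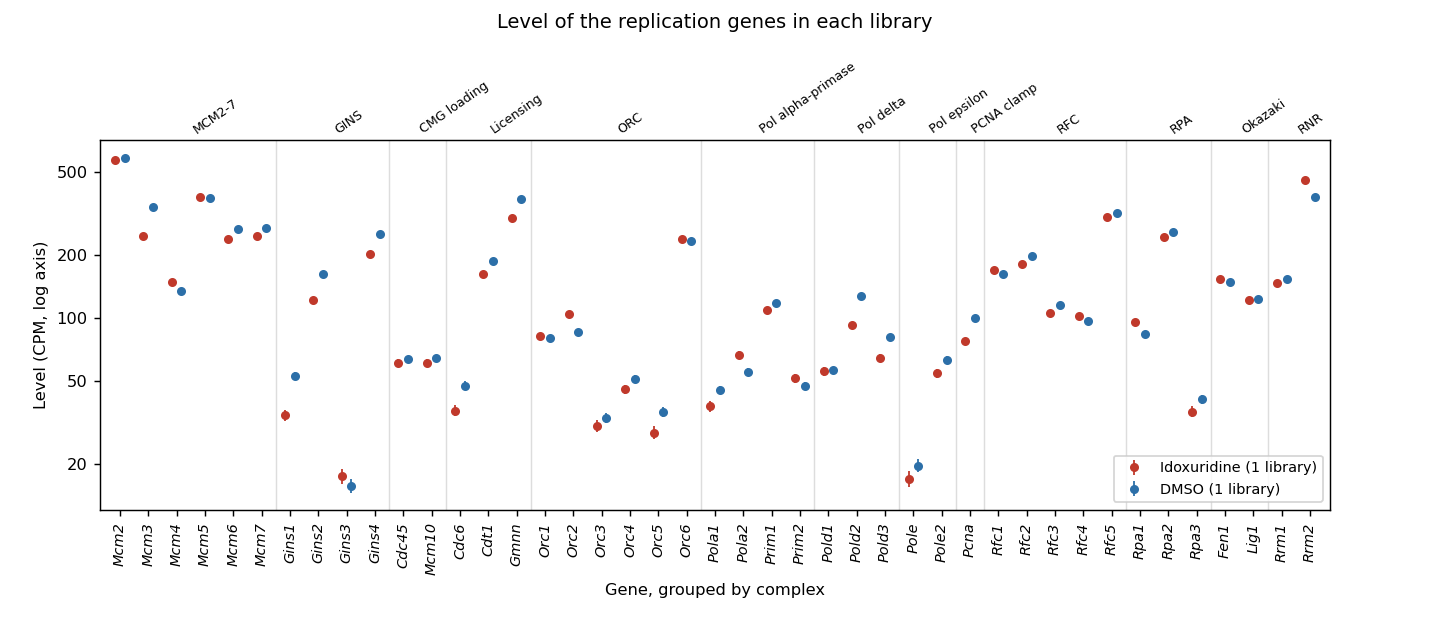
Level of each of the 43 replication genes in the Idoxuridine library (red) and the DMSO library (blue), in CPM on a log axis, grouped by complex; points are library totals and bars 95% Poisson counting intervals, mostly smaller than the points. Mcm2, Rrm2 and Mcm5 stand at the top and Gins3 and Pole at the bottom in both libraries.

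The call used for level was a difference of at least 0.5 log2 with Poisson intervals that do not overlap. By it, 1 of 43 members was lower in Idoxuridine and none was higher, against 4.20% of 10380 genes with at least 200 UMIs called lower and 18.8% called higher. With this scaling and threshold the share of members called lower, 2.33%, is near that background, while no member was among the many genes called higher. The median log2 ratio of the members was -0.11, against 0.09 for all 10380 genes, and 30 of 43 members (69.8%) had a ratio below 0, against 39.7% of all genes. Most members are abundant, and ratios ran lower among abundant genes: 2305 other genes between 55.4 and 216 CPM in DMSO, the quartiles of the members' levels, had a median of -0.04, with 56.8% below 0. Intervals did not overlap for 22 members lower and 5 members higher in Idoxuridine. At these counts small ratios are enough for that, such as -0.07 for Rfc5. The share of all genes with separate intervals was not computed, so these counts are not read as a trait of the members. Scaling by the trimmed mean of M values (TMM) shifts every log2 ratio by -0.21, and median-of-ratios scaling by -0.25. Under these scalings and under totals without mitochondrial and ribosomal protein genes, 29 members were below 0 throughout, 3 were above 0 throughout (Orc2, Pola2 and Rrm2), and 11 changed sign. With TMM 10 of 43 members were called lower, beside 12.2% of all genes, and with median of ratios 11, beside 14.9%. Under these scalings the member share lay above that of all genes, but the share among genes of like level was not computed. Each scaling shifts all ratios alike, so the distance of 0.20 log2 between the member median and that of all genes is fixed by construction. All genes are not matched to the members by level, and genes of like level had the lower median given above.

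**Figure D2:**
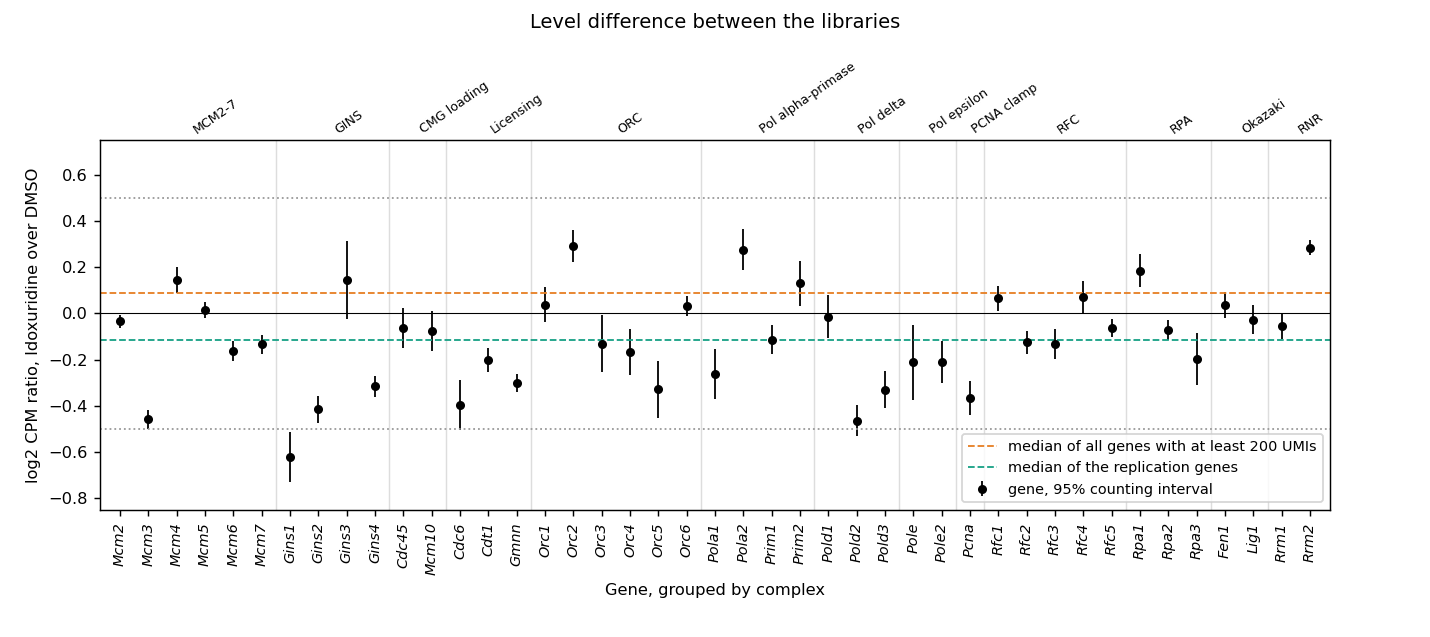
log2 CPM ratio, Idoxuridine over DMSO, of each replication gene with its 95% counting interval. Dotted lines mark 0.5 log2 either way, the orange line the median of all 10380 genes with at least 200 UMIs (0.09) and the green line the member median (-0.11). Gins1 alone lies past the lower dotted line, and Orc2, Rrm2 and Pola2 lie highest.

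Among the proteins that mark and license origins, ORC as a group stood nearly level, at 528 CPM (520 to 536) in Idoxuridine and 518 CPM (511 to 525) in DMSO, a log2 ratio of 0.03 that TMM scaling turns to -0.18. Its subunits differed in abundance by 7.06-fold in DMSO, with Orc6, the smallest subunit of the complex, at 239 CPM (233 to 244) in Idoxuridine and 233 CPM (229 to 238) in DMSO. Orc2 had the highest ratio of the complex, at 104 CPM (101 to 108) in Idoxuridine and 85.3 CPM (82.5 to 88.2) in DMSO, a log2 ratio of 0.29 (0.22 to 0.36). Orc5 had the lowest (-0.33, -0.45 to -0.21), with 28.2 CPM in Idoxuridine and 35.4 CPM in DMSO. The ratios of Orc1 (0.04), Orc3 (-0.13) and Orc4 (-0.17) lay between. Subunits of this complex therefore stood on both sides of 0, and Orc2 and Orc5 differed from each other by more than their counting error.

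The licensing factors all had ratios below 0. Cdc6, the loader ATPase, stood at 35.9 CPM (33.8 to 38.1) in Idoxuridine and 47.3 CPM (45.2 to 49.5) in DMSO, a log2 ratio of -0.40 (-0.51 to -0.29). Cdt1, its partner in loading MCM2-7, had 162 CPM in Idoxuridine and 186 CPM in DMSO (-0.20, -0.25 to -0.15). Gmnn, which encodes geminin, the inhibitor of CDT1, had 299 CPM in Idoxuridine and 368 CPM in DMSO (-0.30, -0.34 to -0.26). Both the loaders and their inhibitor were thus at lower levels in Idoxuridine, none by 0.5 log2.

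The MCM2-7 helicase genes were the most abundant group, at 1822 CPM (1807 to 1837) in Idoxuridine and 1962 CPM (1949 to 1976) in DMSO, a log2 ratio of -0.11 (-0.12 to -0.09). The subunits of this hexamer did not move by the same amount. Mcm3 was the lowest, at 246 CPM (241 to 252) in Idoxuridine and 338 CPM (333 to 344) in DMSO, a ratio of -0.46 (-0.50 to -0.42). Mcm4 lay on the other side of 0, with 148 CPM in Idoxuridine and 134 CPM in DMSO, a ratio of 0.14 (0.09 to 0.20) that TMM scaling turns to -0.07. Mcm2 (-0.03), Mcm5 (0.02), Mcm6 (-0.16) and Mcm7 (-0.13) lay between. Mcm7 hosts 3 microRNA genes on its own strand and overlaps Cops6 and Ap4m1 on the other.

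GINS, the tetramer that completes the active helicase, was lower as a group, at 376 CPM (369 to 383) in Idoxuridine and 483 CPM (476 to 489) in DMSO, a log2 ratio of -0.36 (-0.39 to -0.33). Gins1 was the single member past the threshold, at 34.1 CPM (32.0 to 36.2) in Idoxuridine and 52.5 CPM (50.3 to 54.7) in DMSO, from 1038 and 2141 UMIs, a ratio of -0.62 (-0.73 to -0.51). It lies on GRCm38 at chromosome 2, 150905400 to 150931280, plus strand, with no other gene overlapping it in GENCODE M21. Gins2 (-0.42) and Gins4 (-0.32) were lower by less, and the sparse Gins3, with 17.4 CPM in Idoxuridine and 15.7 CPM in DMSO, had intervals that overlap (0.15, -0.02 to 0.31). Cdc45 (-0.06) and Mcm10 (-0.08) also had overlapping intervals in the 2 libraries.

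With CPM, the polymerase genes did not share a direction. With TMM scaling the group ratios were all below 0, at -0.21 for alpha-primase, -0.53 for delta and -0.42 for epsilon. Polymerase alpha-primase, which makes the RNA-DNA primers, stood at 264 CPM (259 to 270) in Idoxuridine and 265 CPM (260 to 270) in DMSO, with its catalytic gene Pola1 (-0.26) and its second subunit gene Pola2 (0.28) on opposite sides of 0. The primase genes Prim1 (-0.11) and Prim2 (0.13) lay closer to it. Polymerase delta, the lagging-strand enzyme, had 211 CPM in Idoxuridine and 263 CPM in DMSO, a group ratio of -0.32 (-0.36 to -0.27). Its catalytic gene Pold1 was level in CPM (-0.01, -0.11 to 0.08, turning to -0.22 with TMM). The accessory genes Pold2 (-0.47, -0.53 to -0.40) and Pold3 (-0.33) were lower. Polymerase epsilon, the leading-strand enzyme, had ratios of -0.21 for both its catalytic gene Pole and its second subunit gene Pole2, with intervals that overlap between libraries for Pole.

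Among fork factors, Pcna, the clamp, stood at 77.1 CPM (74.0 to 80.3) in Idoxuridine and 99.3 CPM (96.3 to 102) in DMSO, a log2 ratio of -0.37 (-0.44 to -0.29). Its level is uncertain in that the annotation holds a pair of named Pcna pseudogenes that could take a part of its reads. The clamp loader RFC, with 5 subunits, differed by -0.05 as a group and its subunits ran between -0.13 and 0.07. RPA differed by -0.02 as a group, with Rpa1 higher, at 95.4 CPM in Idoxuridine and 84.0 CPM in DMSO (0.18, 0.11 to 0.26, turning to -0.03 with TMM), and Rpa3 lower (-0.20). In CPM, the flap nuclease gene Fen1 (0.04) and the ligase gene Lig1 (-0.03) were level within counting error. With TMM they stood at -0.17 and -0.24.

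Ribonucleotide reductase was the group with the highest ratio, at 605 CPM (597 to 614) in Idoxuridine and 529 CPM (522 to 536) in DMSO, a log2 ratio of 0.19 (0.17 to 0.22). This lay with Rrm2, the small subunit that is made in S phase and limits the enzyme, which had 458 CPM in Idoxuridine and 376 CPM in DMSO (0.28, 0.25 to 0.32). Rrm1, the large subunit, had a ratio of -0.06. With TMM scaling the ratio of Rrm2 was 0.07 and that of the group turned to -0.02, and with median of ratios the group stood at -0.06.

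The next question is how the members follow the cell cycle within each library. Each cell was compared at a fixed depth of 23500 UMIs, which 648 Idoxuridine cells and 764 DMSO cells reached, and was placed by its summed S phase genes (25 genes, from which all members had been removed) less its summed G2/M genes (54 genes). Cells were cut by this score into 3 groups of equal size in each library, called S-leaning, middle and G2/M-leaning. These are ranges of a score and not phases, and 53 Idoxuridine and 60 DMSO cells lay within 0.1 of a boundary. Median raw depth differed between the ends, at 35322 UMIs in S-leaning and 46548 in G2/M-leaning Idoxuridine cells, and 39330 and 49853 in DMSO cells.

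Members summed to 172 UMIs per S-leaning cell and 130 per G2/M-leaning cell in the Idoxuridine library, a log2 ratio of 0.40 (0.39 to 0.42). In the DMSO library they summed to 180 and 141, a ratio of 0.36 (0.35 to 0.37). S-leaning cells were higher for 39 of 43 members (90.7%) in Idoxuridine, against 53.8% of 7239 genes outside the scoring lists. In DMSO they were higher for 38 members (88.4%), against 52.9%, and 36 members were higher in both. A ratio of at least 0.25 log2 was reached by 25 members (58.1%) in Idoxuridine, against 14.1% of 7239 genes outside the scoring lists, and by 21 members (48.8%) in DMSO, against 11.4%. In both libraries it was reached by 17 members, against 5.80% of all genes, and no member was at -0.25 or below in either, against 11.2% of all genes in Idoxuridine and 10.2% in DMSO. The 2 libraries were cut separately.

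**Figure D3:**
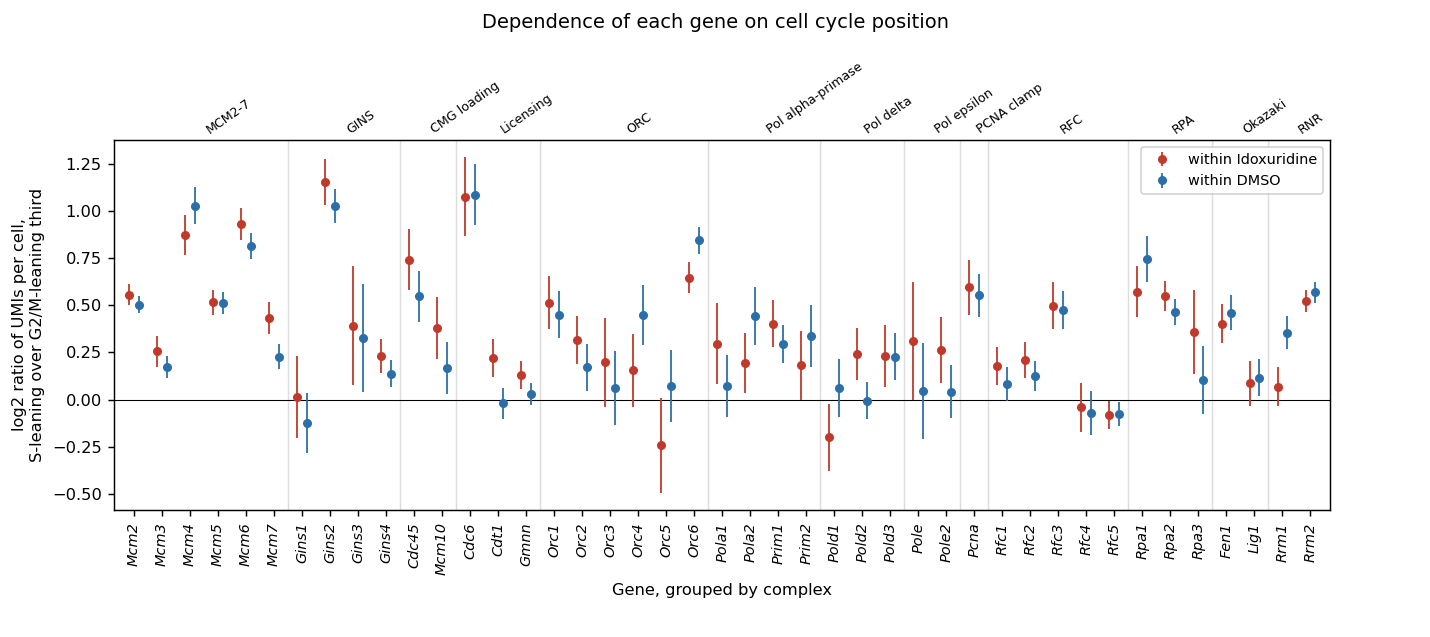
log2 ratio of UMIs per cell at the fixed depth, S-leaning over G2/M-leaning cells, for each replication gene within the Idoxuridine library (red) and within the DMSO library (blue), with 95% counting intervals. Gins2, Cdc6, Mcm4, Mcm6 and Orc6 lie high in both libraries, and Rfc4 and Rfc5 lie just below 0 in both.

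Strong dependence was spread over complexes rather than held by one of them. Gins2 had 4.12 UMIs per S-leaning cell and 1.85 per G2/M-leaning cell in Idoxuridine, a log2 ratio of 1.15 (1.03 to 1.27), and 5.08 and 2.49 in DMSO, a ratio of 1.03 (0.94 to 1.12). The other GINS genes were flatter, with Gins3 at 0.39 and 0.33, Gins4 at 0.23 and 0.14 and Gins1 at 0.01 and -0.12 in Idoxuridine and DMSO. Cdc6 had 1.41 and 0.667 UMIs in Idoxuridine and 1.79 and 0.843 in DMSO, ratios of 1.08 and 1.09. Cdt1 and Gmnn, its licensing partners, had ratios of 0.22 and 0.13 in Idoxuridine and -0.02 and 0.03 in DMSO.

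Within MCM2-7, Mcm4 and Mcm6 had the highest ratios in both libraries, with Mcm6 ahead in Idoxuridine and Mcm4 in DMSO. Mcm6 had a ratio of 0.93 (0.85 to 1.02) in Idoxuridine and 0.81 (0.74 to 0.88) in DMSO, and Mcm4 had 0.87 (0.77 to 0.98) and 1.03 (0.93 to 1.13). Mcm2 (0.56 and 0.50) and Mcm5 (0.52 and 0.51) followed. Mcm7 (0.43 and 0.23) and Mcm3 (0.25 and 0.17) were lowest. In ORC, Orc6 (0.65 and 0.84) and Orc1 (0.51 and 0.45) had the highest ratios, while Orc3 (0.20 and 0.06) was closer to 0. The intervals of Orc6 and Orc3 were apart in both libraries, and those of Orc1 and Orc3 in DMSO but not in Idoxuridine.

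Polymerase delta and the clamp loader had low ratios in both libraries, and polymerase epsilon in DMSO. As groups, polymerase delta had ratios of 0.12 in Idoxuridine and 0.08 in DMSO, polymerase epsilon 0.27 and 0.04, and RFC 0.11 and 0.07. Rfc3 (0.50 and 0.47) stood out in RFC, while Rfc4 (-0.04 and -0.07) and Rfc5 (-0.08 and -0.08), parts of the same pentamer, were on the other side of 0. Pcna (0.59 and 0.55), Rpa1 (0.57 and 0.74), Rpa2 (0.55 and 0.47), Fen1 (0.40 and 0.46) and Rrm2 (0.52 and 0.57) followed S phase genes more closely. Rrm1 had ratios of 0.07 (-0.04 to 0.17) in Idoxuridine and 0.36 (0.27 to 0.44) in DMSO, intervals that do not overlap.

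Among the members with a promoter window, a match to the searched letters did not go with larger ratios. Gins2 and Mcm4, which have high ratios, had no window and are in neither set. The 15 genes with a match had a median ratio of 0.30 in Idoxuridine and 0.23 in DMSO, and the 20 genes without one 0.37 and 0.40. Both sets spanned a wide range, from -0.20 to 1.08 with a match and from -0.24 to 0.74 without one in Idoxuridine. Referring back to the printed windows, Cdc6 had the highest ratio of the first set in both libraries, and Orc6 (0.65 and 0.84) and Rfc5 (-0.08 and -0.08) differ from each other although neither window holds a match.

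A single score cannot part cells low in both lists from cells in transition, so cells were also put in 4 groups by whether each sum lay above the library's median, a choice made after the first values were seen. The 43 members together had 122 UMIs in Idoxuridine cells low in both sums, 177 in cells high in the S sum alone, 157 in cells high in both and 129 in cells high in the G2/M sum alone. In DMSO these were 130, 184, 161 and 141. The highest mean was in cells high in the S sum alone for 29 members in Idoxuridine and for 36 in DMSO, with 27 shared. The share of all genes highest in those cells was not computed, so these counts have no background. Cdc6 differed most between the 4 groups, with 0.483 UMIs in cells low in both sums and 1.44 in cells high in the S sum alone in Idoxuridine, and 0.601 and 1.76 in DMSO. Rrm2 came next, with 6.42 UMIs against 15.4 in cells high in the S sum alone in Idoxuridine, and 5.04 against 12.5 in DMSO. Cdc45 behaved likewise, at 0.973 and 2.15 in Idoxuridine and 0.880 and 2.12 in DMSO. Gmnn was also high in cells high in both sums, at 7.29 in Idoxuridine and 9.43 in DMSO, against 5.27 and 6.54 in cells low in both.

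The level difference between treatments was also taken within ranges of the score, with boundaries set on both libraries pooled. S-leaning cells were 29.6% of Idoxuridine cells and 36.5% of DMSO cells, and G2/M-leaning cells 36.9% and 30.4%. Members together had a log2 ratio, Idoxuridine over DMSO, of -0.04 (-0.06 to -0.03) in S-leaning, -0.05 (-0.07 to -0.04) in middle and -0.09 (-0.10 to -0.07) in G2/M-leaning cells. GINS genes were lower in each range (-0.23, -0.38 and -0.34 in the same order), as were polymerase delta genes (-0.30, -0.23 and -0.34) and Pcna (-0.27, -0.29 and -0.34). The sum of Rrm1 and Rrm2 had ratios of 0.19, 0.25 and 0.24, which TMM scaling turns to -0.02, 0.04 and 0.03.

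The spread between cells was described by the Fano factor, the variance divided by the mean of a gene's UMIs per cell at the fixed depth, which is 1 where counting alone sets the spread. For genes that vary beyond counting it rises with the mean, so its order partly follows abundance. Rrm2 was highest by this measure, with a Fano factor of 4.29 in Idoxuridine and 3.21 in DMSO at means of 11.4 and 9.35 UMIs. Mcm2 followed, at 2.62 and 2.26, and Mcm6 at 2.03 and 1.82. The member median was 1.28 in Idoxuridine and 1.18 in DMSO, against 1.14 and 1.08 for all genes outside the scoring lists with a mean of at least 0.25 UMI in both libraries. Members and all genes were not matched by mean. At the other end Gins3 (1.03 and 1.00), Prim2 (1.03 and 1.04) and Pole (1.07 and 0.993) varied about as much as counting alone gives. Cdc6, also sparse at means of 0.911 and 1.20 UMIs, had 1.45 and 1.51. By another measure, the variance less the mean divided by the squared mean, Cdc6 was the highest member. It had 0.50 in Idoxuridine and 0.42 in DMSO, ahead of Rrm2 (0.29 and 0.24), while Mcm2 had 0.12 and 0.09.

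**Figure D4:**
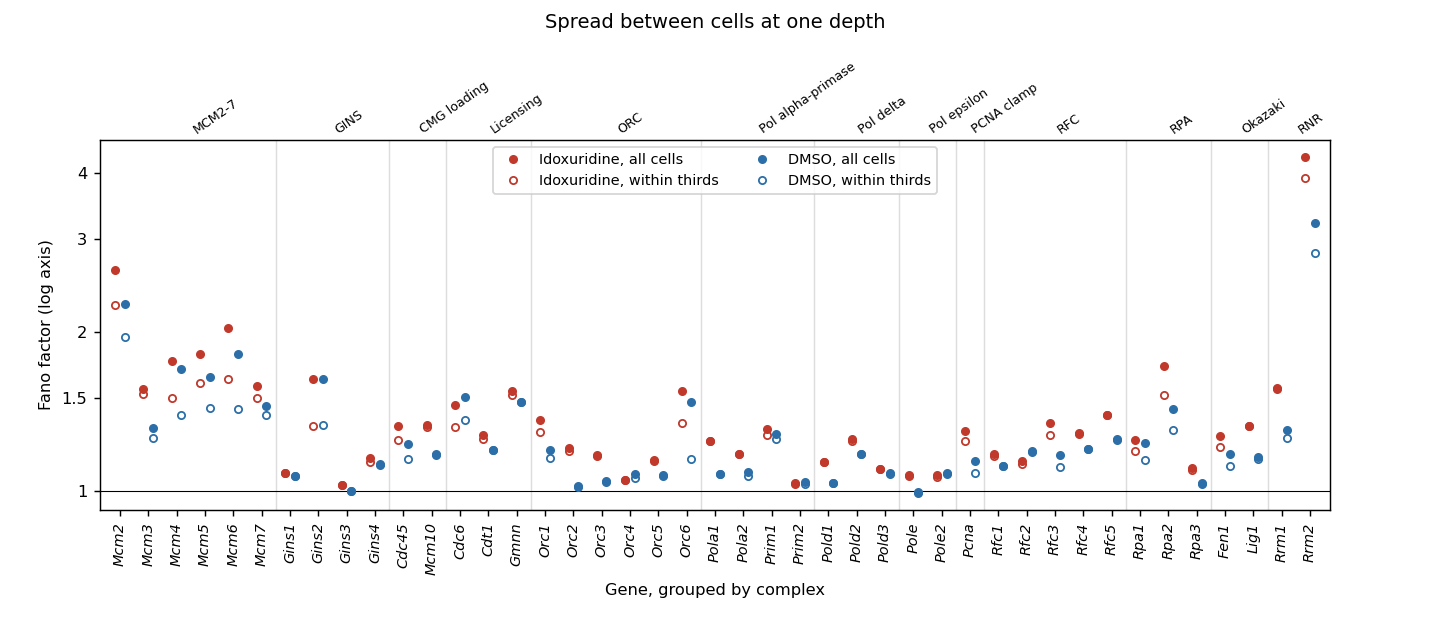
Fano factor of each replication gene at the fixed depth in the Idoxuridine library (red) and the DMSO library (blue), on a log axis; filled points are over all cells and open points within the 3 cell cycle groups. Rrm2 lies above all others, and open points fall clearly below filled ones for Mcm6, Orc6 and Gins2, among others.

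Spread by this measure was greater in Idoxuridine than in DMSO for 38 members (88.4%), against 79.2% of 7316 genes, with a median log2 ratio of 0.11 against 0.08. An increase of at least 0.25 log2 was seen in 3 members, against 10.5% of all genes. They were Rrm2 (0.42), Rrm1 (0.27) and Rpa2 (0.27), at means of 11.4, 3.61 and 5.89 UMIs in Idoxuridine and 9.35, 3.82 and 6.08 in DMSO. No member was lower by that much, against 0.383% of all genes. The member shares are near those of all genes. With raw UMIs in place of the fixed depth the member median was -0.07.

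Part of the spread went with cell cycle position. Taken within the 3 score groups, the Fano factor of Orc6 was 1.34 in Idoxuridine and 1.15 in DMSO, against 1.55 and 1.47 over all cells. That of Gins2 was 1.33 and 1.34, against 1.63 and 1.63, and that of Mcm6 1.63 and 1.43, against 2.03 and 1.82. Rrm2 kept most of its spread within these groups, at 3.91 and 2.82, but the groups do not part cells low in both sums from cells high in both. Rrm2 differed between those cells, with 6.42 and 13.4 UMIs in Idoxuridine and 5.04 and 10.3 in DMSO. It also had the highest correlation of any member with the summed S phase genes (0.51 and 0.57). How much of its spread goes with the cell cycle was therefore not settled. The median log2 Fano ratio between treatments was 0.10 within groups.

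Members varied together over cells. Their sum had a Pearson correlation with the summed S phase genes of 0.74 over 648 Idoxuridine cells and 0.77 over 764 DMSO cells, and of -0.10 and -0.16 with the summed G2/M genes. These points share a library and 1 depth, and the values are descriptions. By group the correlation with the S sum was highest for MCM2-7 (0.57 and 0.61) and ribonucleotide reductase (0.50 and 0.59) and lowest for polymerase delta (0.15 and 0.18) and epsilon (0.18 and 0.09). Every member correlated above 0 with the sum of the other 42, with a median of 0.22 in Idoxuridine and 0.19 in DMSO. Of 7239 genes outside the scoring lists, 53.0% in Idoxuridine and 52.7% in DMSO correlated above 0 with the member sum, with medians of 0.004. Some members lay at about 0 in 1 library, as Orc5 in Idoxuridine (0.001) and Rpa3 in DMSO (0.003).

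Between single genes the correlations were small, with a median over 903 pairs of 0.05 in Idoxuridine and 0.05 in DMSO, with few UMIs per cell for most members. MCM2-7 stood apart. All 15 of its pairs lay between 0.22 and 0.40 in Idoxuridine and between 0.17 and 0.40 in DMSO. Mcm5 with Mcm6 reached 0.40 and 0.38, and Mcm4 with Mcm6 0.36 and 0.40. Rrm1 with Rrm2, the subunits of ribonucleotide reductase, had 0.24 and 0.23. Sharing a complex did not go with higher values in ORC, whose 15 pairs had medians of 0.01 and 0.02, or in GINS, whose 6 pairs had 0.04 and 0.03. Rrm2, from another group, reached 0.36 and 0.33 with Mcm5 and 0.30 and 0.38 with Rpa2. Levels differ widely between members, from rank 1 for Mcm2 and 2 for Rrm2 to rank 18 for Mcm4 of 43 in DMSO, and the part of abundance in these values was not tested.

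**Figure D5:**
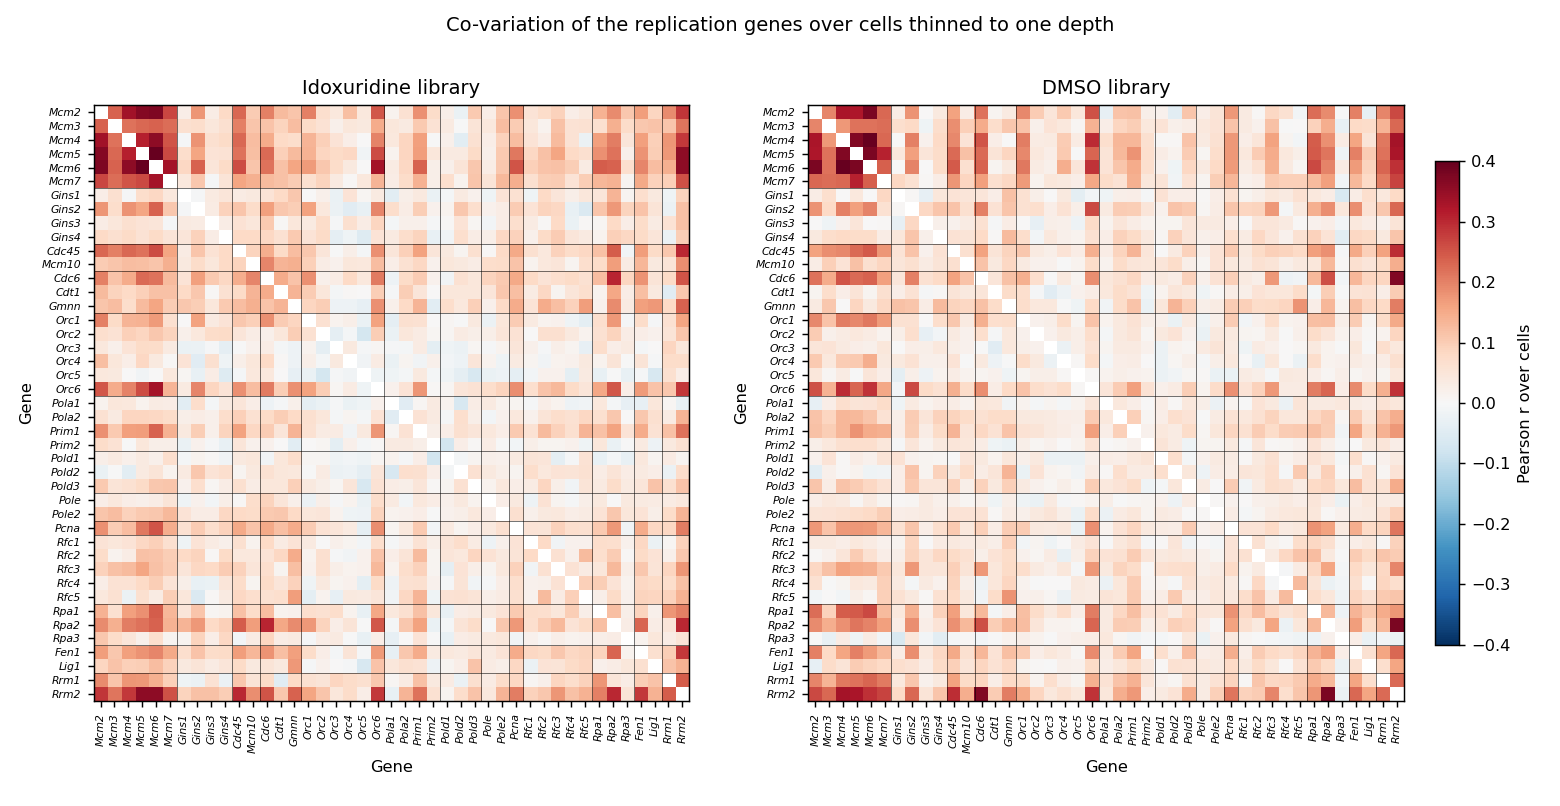
Pearson correlation over cells, at the fixed depth, between all pairs of the 43 replication genes in the Idoxuridine library (left) and the DMSO library (right); lines part the complexes and the colour scale runs from -0.4 to 0.4. The MCM2-7 block stands out at the top left, with bands for Orc6, Rpa2 and Rrm2.

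The genes outside the lists whose levels most resembled the member sum were ranked in DMSO cells, among 5592 genes with a mean of at least 0.5 UMI. The first was Ccne1, which encodes cyclin E1, the activator of CDK2 at entry into S phase, with a correlation of 0.41 in Idoxuridine, where it ranked 2 of 5592, and 0.45 in DMSO. In Idoxuridine and DMSO cells the next were Eif4a1 (0.29 and 0.40), Hnrnpf (0.44 and 0.39), Hspd1 (0.39 and 0.36), Hspa9 (0.30 and 0.35) and Uba2 (0.33 and 0.35). Srsf2 (0.35 and 0.33), Dnaja2 (0.25 and 0.33) and Slfn9 (0.29 and 0.32) completed the first 10 with Calr. Calr, a chaperone gene of the endoplasmic reticulum, had 0.06 in Idoxuridine, at rank 1214, and 0.33 in DMSO. Counting noise lowers the correlation of sparse genes more, and the part of abundance in this ranking was not tested. Means in DMSO were 72.2 UMIs for Eif4a1 and 58.8 for Hnrnpf, against 3.15 for Ccne1 and 0.542 for Slfn9.

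Neighbouring genes of the pathway are given for context, and their counts are to be read against the 18.8% of all genes called higher and the 4.20% called lower. Of 31 firing and fork factors, 1 was called lower and none higher: Rnaseh2b, a subunit of the nuclease that removes RNA from DNA, stood at 93.5 CPM in Idoxuridine and 143 CPM in DMSO, a log2 ratio of -0.61. Recql4 (0.41), Ticrr (-0.41), Top1 (0.39) and Chtf18 (-0.36) differed by less, and the list median was 0.04. With TMM, where 12.1% of all genes were called higher and 12.2% lower, Ticrr and Chtf18 passed too, for 3 lower in all. Of 30 G1/S regulators, 4 were called higher and none lower. They were Ccnd2, which encodes cyclin D2 (18.5 and 6.49 CPM, 1.51), Rb1, which encodes the E2F-binding retinoblastoma protein (9.85 and 4.63 CPM, 1.09), Cul4a, a ubiquitin ligase scaffold gene (0.85), and E2f6 (0.65). Cdk4 (-0.41), E2f2 (0.38), E2f1 (0.38) and Cdkn1b (-0.36) did not pass, and the list median was 0.06. With TMM 3 were called higher, without E2f6, and 3 lower (Cdk4, Cdkn1b and Rbl1).

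Of 10 S phase checkpoint genes 9 reached 200 UMIs. Of these 2 were called lower (22.2%), against 4.20% of all genes, and none higher, against 18.8%. Hus1 (-0.57) and Rad1 (-0.51), both parts of the 9-1-1 clamp that signals stalled forks, were called lower, at 13.1 and 51.0 CPM in Idoxuridine and 19.4 and 72.8 CPM in DMSO. Rad9a, the remaining part of that clamp, had a ratio of -0.19, and Wee1 (-0.36), Etaa1 (0.10) and Rad17 (0.10) did not pass either. With TMM Wee1 passed as well (-0.57), and with totals that leave out mitochondrial and ribosomal protein genes Rad1 did not. Of 12 deoxynucleotide supply genes 1 was called higher (8.33%), against 18.8% of all genes, and none lower, against 4.20%. It was Dctd, which encodes deoxycytidylate deaminase, at 123 CPM in Idoxuridine and 73.6 CPM in DMSO (0.74). Tyms, which encodes thymidylate synthase, had a ratio of -0.48, Tk1 -0.39, Nme1 -0.30 and Rrm2b 0.30. With TMM 4 of the 12 were called lower (Tyms, Tk1, Nme1 and Dctpp1), against 12.2% of all genes. With median of ratios Dctd no longer passed (0.49). The medians were -0.02 for the checkpoint list and -0.19 for the supply list, against 0.09 for all genes.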

How the data were processed

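The authors deposited a matrix of raw counts for each library, with whole numbers of UMIs by gene and cell, made with the 10x Genomics 3′ V2 kit per the labels. Per the submitters' processing notes the tools were Cell Ranger 2 and Seurat and the build was mm10, with no step assigned to either tool. The rule that picked barcodes as cells and the annotation release are not given in the sources used here. Every barcode was kept, and no doublet caller was run. UMIs were summed per library and scaled to CPM, with exact Poisson intervals and exact conditional binomial intervals of ratios (scipy 1.17.1). TMM factors came from edgeR 4.0.16, used for scaling only. The smallest library total was 30454626 UMIs. The spread between cultures cannot be measured with 1 library per treatment.

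For spread, correlation and cell cycle results, cells were thinned to 23500 UMIs by exact expectation, which left out 94 Idoxuridine cells (12.7%) and 47 DMSO cells (5.80%). That depth is the 10th percentile of all cells' UMI totals, rounded down to a step of 500. Genes entered the Fano comparison with a mean of 0.25 UMI or more per thinned cell. The score used 1 seeded thinning and the S phase and G2/M lists that Seurat distributes, without 17 members found in the first. Steps were tested on simulated data. Members, lists and rules were chosen with earlier results of these data known, and the 4 score groups and the genes of like level were added after seeing the data, as were the other scalings of the pathway lists and complexes. The rule for named genes allowed all members, called genes and up to 4 others of each pathway list, and 10 genes most correlated with the member sum in DMSO. Sequences are from RefSeq, GRCm38.p6, and coordinates of genes from GENCODE M21 on GRCm38, the assembly mm10 names. Of the members, 12 overlap another annotated gene on the same strand and 17 one on the other strand.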

Additional observations from a re-analysis of the deposited data

Results flagged for a closer look

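For 5 members the S-leaning over G2/M-leaning log2 ratio had opposite signs in the 2 libraries, and the difference was not tested, as each side is 1 library. Orc5 stood at -0.24 (-0.49 to 0.01) in Idoxuridine and 0.07 (-0.12 to 0.26) in DMSO, and Pold1 at -0.20 (-0.38 to -0.02) and 0.06 (-0.09 to 0.21). Pold2 stood at 0.24 (0.10 to 0.38) in Idoxuridine and -0.01 (-0.11 to 0.10) in DMSO, and Cdt1 at 0.22 (0.12 to 0.32) and -0.02 (-0.10 to 0.06). Gins1 stood at 0.0139 (-0.20 to 0.23) in Idoxuridine and -0.12 (-0.28 to 0.03) in DMSO. The counting intervals of the 2 libraries overlap for Orc5, Pold1 and Gins1 and do not for Cdt1 and, narrowly, Pold2. These intervals leave out the spread between cells. Fano factors were 1.28 in Idoxuridine and 1.20 in DMSO for Cdt1, and 1.25 and 1.18 for Pold2.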

How the results depend on the processing

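The fold threshold and the scaling set how many members were called. Of 43 members, those lower in Idoxuridine were 10 with TMM, 11 with median of ratios and 11 at 0.25 log2, against 1 as reported. Of 10380 genes 1262, 1551 and 1394 (12.2%, 14.9% and 13.4%) were called lower under these settings, against 436 (4.20%). The member shares thus lay above those of all genes under these settings. Most members are abundant, and the shares called among genes of like level were not computed. The excess is therefore not read as a trait of the members. At 0.25 log2 3 members were higher, against 31.1% of all genes, and 0 as reported. The member median of -0.11 was -0.32 with TMM and -0.37 with median of ratios, which shift all genes by -0.21 and -0.25. The medians of the members' own lower and upper counting limits were -0.17 and -0.03. The member median stayed between them without mitochondrial and ribosomal protein genes and with means of cell shares. It also did so without the 5% of cells with the most UMIs. A minimum of 50 UMIs could not change it, as every member had at least 200 UMIs. The median Fano ratio of 0.11 was -0.069 with raw UMIs, where depth differs between cells, and between 0.07 and 0.12 under the other settings. The member ratio between S-leaning and G2/M-leaning cells, 0.40 in Idoxuridine and 0.36 in DMSO, kept its direction. It was 0.29 and 0.28 with cells parted at the median, 0.17 and 0.18 by the G2/M list alone, and 0.55 and 0.48 by the S list alone. It was 0.38 in DMSO with another seed and 0.38 without the deepest cells, and 0.37 in Idoxuridine at 15000 UMIs. Correlations with the S sum ranged from 0.72 to 0.75 in Idoxuridine and from 0.74 to 0.77 in DMSO. Within S-leaning, middle and G2/M-leaning cells the level ratios were -0.25, -0.27 and -0.30 with TMM, and -0.066, -0.088 and -0.108 with boundaries set in each library. No paired analysis was possible because each treatment has 1 library. Values at low counts, such as Gins3 and Pole, are limited by depth.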

Other observations

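The CCAAT box, searched on both strands of the same promoter windows, was found for 23 of 35 members (65.7%), against 43.7% of 7971 genes with at least 200 UMIs. Per depth-matched cell, the member sum ran from 55 to 264 UMIs in Idoxuridine, with a median of 145.5, and from 61 to 252 in DMSO, with a median of 155. The coefficient of variation of this sum was 0.23 in Idoxuridine and 0.20 in DMSO.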
